A study of Mus musculus with 9 samples.

Results

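The chemokines and receptors that bring blood progenitors into the fetal thymus were followed as a group of 7 genes. They comprise the ligands Ccl25 and Cxcl12, the signalling receptors Ccr9, Cxcr4 and Ccr7, and the atypical receptors Ackr4 and Ackr3. Members were taken by gene symbol. Each of the 7 had a single transcript cluster among the 22206 measured clusters, which carry 19505 distinct gene symbols. Total RNA came from embryonic thymic lobes of C57BL/6 mice at e13.5, on Clariom S arrays that report a log2 signal for each transcript cluster. There were 3 arrays of wild type (wt; W1 to W3), 3 of Foxn1933/1089 (F1 to F3) and 3 of Tbx1neo2/neo2 (T1 to T3), where the digit is the replicate number. Foxn1933/1089 embryos carry a different mutant allele of Foxn1, the master regulator of thymic epithelium, on each chromosome (here Foxn1 mutants). Tbx1neo2/neo2 embryos are homozygous for an allele known to reduce expression of Tbx1, a patterning gene of the pharynx (here Tbx1 mutants). The titles of the wild type arrays carry the same prefix as those of the Foxn1 mutants, and no wild type array carries that of the Tbx1 mutants. The sources used here do not say how many embryos went into a sample, nor whether those sharing a genotype had different embryos as their source, and p-values speak for the spread between these samples only.

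Before the fetal thymus is vascularised, progenitors reach it through the surrounding mesenchyme along gradients of chemokines. CCL25 from thymic epithelium acts on CCR9, and CXCL12 from stroma acts on CXCR4. CCR7 and its ligands, the CCL21 and CCL19 chemokines, act beside them in the fetal thymus. ACKR4 binds CCL25, CCL19 and CCL21, and ACKR3 binds CXCL12. Both atypical receptors clear their ligands without coupling to G proteins and so shape the gradients. FOXN1 is known to be needed for Ccl25 in thymic epithelium.

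Stromal Cxcl12 and its receptor Cxcr4 were well above the median of probes with no target on all arrays, while Ccl25 was modestly above it and Ccr9 mostly under it. No member passed the test between genotypes after adjustment over all clusters. The clearest values were those of Ccl25 and Cxcl12, each with a higher mean in the Tbx1 mutants than in wild type (by 0.75 and 1.14 on the log2 scale). On W1 and F2, where Prss16 and Psmb11 of cortical thymic epithelium stood under background, Cxcr4 was low on F2 alone.

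The negative-control features of the arrays, 5222 probes with no intended target, had medians of 4.27 to 4.94 on the log2 scale, and these medians serve below as the background level of each array. Cluster medians were 5.09 to 5.20. W1 and F2 stood apart. The 14 measured thymic epithelium markers averaged 8.65 and 8.63 there and 10.69 to 11.48 on the other 7 arrays, and the 13 leukocyte markers 7.08 and 7.45 against 9.84 to 10.81. The epithelial markers did not all move alike. Krt5 was low on W1 and F2 (8.68 and 8.50 against 12.87 to 14.14). Epcam (8.33 and 8.82) and Pax9 (9.10 and 9.05) lay within the range of the other arrays. Eya1 was higher (15.40 and 13.04 against 11.31 to 12.25). The 10 neuronal markers averaged 11.30 on W1 and 5.18 to 5.69 on all others. Foxn1 itself read 7.78, 10.35 and 10.01 on W1 to W3, 9.02, 8.73 and 9.67 on F1 to F3, and 8.88, 10.04 and 9.70 on T1 to T3. Its difference in the Foxn1 mutants was -0.24, and -0.84 without W1 and F2 (adjusted p = 1.00 and 0.870 by limma). Tbx1 read 5.85, 4.25 and 4.54 on W1 to W3, 4.07, 4.83 and 4.61 on F1 to F3, and 5.38, 4.80 and 5.30 on T1 to T3. The Tbx1 signal was thus not lower on the arrays labelled Tbx1neo2/neo2. It was at 0.28 against wild type and 0.76 without W1 and F2 (adjusted p = 1.00 and 0.505 by limma). On W2 and F1 it lay under the negative-control medians of 4.41 and 4.36. Whether the allele reduces Tbx1 RNA in these lobes was not tested. Whether these probes lie outside the altered part of either gene is not known here, so they do not check the labels. In whole lobes, fewer cells of a type and less RNA per cell cannot be told apart.

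Ccl25 and Cxcl12 are on the list of 16 FOXN1-dependent genes used here, so their upstream sequences are shown, from RefSeq on GRCm38.p6. Entries were matched for 6 of the 7 members, all but Ccr7. Each run is the 250 bases before a gene start, 5′ to 3′, and capitals mark the letters GACGC on either strand (GCGTC on the other), a core of the motif reported for FOXN1. RefSeq gives 2 start sites for Ccl25, at chr8:4324960-4325209 and chr8:4349338-4349587 on the plus strand. The Cxcl12 run is chr6:117168285-117168534, plus strand.
Ccl25, start site 1: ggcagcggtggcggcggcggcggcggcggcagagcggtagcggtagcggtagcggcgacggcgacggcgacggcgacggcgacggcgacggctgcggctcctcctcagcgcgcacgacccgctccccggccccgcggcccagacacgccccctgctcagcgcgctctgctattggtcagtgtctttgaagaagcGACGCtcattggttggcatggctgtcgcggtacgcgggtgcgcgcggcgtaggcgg
Ccl25, start site 2: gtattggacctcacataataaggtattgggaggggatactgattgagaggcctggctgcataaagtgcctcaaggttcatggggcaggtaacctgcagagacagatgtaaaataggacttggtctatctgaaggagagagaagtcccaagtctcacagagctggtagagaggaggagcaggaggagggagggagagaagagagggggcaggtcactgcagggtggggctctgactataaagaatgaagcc
Cxcl12: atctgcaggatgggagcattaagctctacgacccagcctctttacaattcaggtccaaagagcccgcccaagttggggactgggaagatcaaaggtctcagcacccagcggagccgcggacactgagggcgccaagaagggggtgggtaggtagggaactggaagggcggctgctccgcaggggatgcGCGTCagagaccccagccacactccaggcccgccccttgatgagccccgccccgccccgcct

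The motif occurred once before the first Ccl25 start, beginning 56 bases upstream, and not before the second. It occurred once before Cxcl12, 62 bases upstream and on the minus strand. The windows of Ccr9, Cxcr4, Ackr4 and Ackr3 do not hold these letters. Of 32851 mouse promoter windows of the same length, 22.6% hold them, against 2 of the 7 windows of the members. The first Ccl25 window is 74.8% G and C, where the median window is 52.4%. A match describes letters and is not a binding site.

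Ccl25, the epithelial ligand of CCR9, read 5.78, 5.90 and 5.88 on W1 to W3, 6.45, 5.67 and 6.08 on F1 to F3, and 6.89, 6.06 and 6.86 on T1 to T3. Every array was above its negative-control median, yet between 63.9% and 86.3% of the negative-control features were lower, and 0 of 9 arrays passed their 95th percentile. Ccl25 therefore sat in the range of probes without a target, where a difference in log2 signal can understate a difference in RNA. The 3 Tbx1 mutant arrays were all higher than the 3 wild type arrays, and the 3 Foxn1 mutants overlapped both groups.

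The lowest Ccl25 values were on F2 (5.67) and W1 (5.78). On the same arrays Prss16, a thymus-specific serine protease, had 4.45 and 4.24 against 13.87 to 14.43 elsewhere. Relative to its mean on the other 7 arrays, Ccl25 was at -0.64 and -0.52 there. Among the other 7 arrays, those with more epithelial signal did not have more Ccl25. W2 had the highest epithelial marker mean (11.48) and a Ccl25 value of 5.90, and T1 the lowest (10.69) and the highest Ccl25 (6.89).

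Cxcl12, the ligand of CXCR4 made by mesenchyme, endothelium and some epithelium, read 8.34, 7.43 and 8.82 on W1 to W3. It read 8.42, 9.27 and 8.07 on F1 to F3, and 9.95, 8.65 and 9.41 on T1 to T3. All 9 values were above the negative-control medians, and 5 passed the 95th percentile of the negative controls. The W and T arrays overlapped only through W3 (8.82) and T2 (8.65). The low end was W2, and the high end T1. W1 and F2 lay within the range of the others for Cxcl12, at 8.34 and 9.27 between 7.43 and 9.95.

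**Figure D1:**
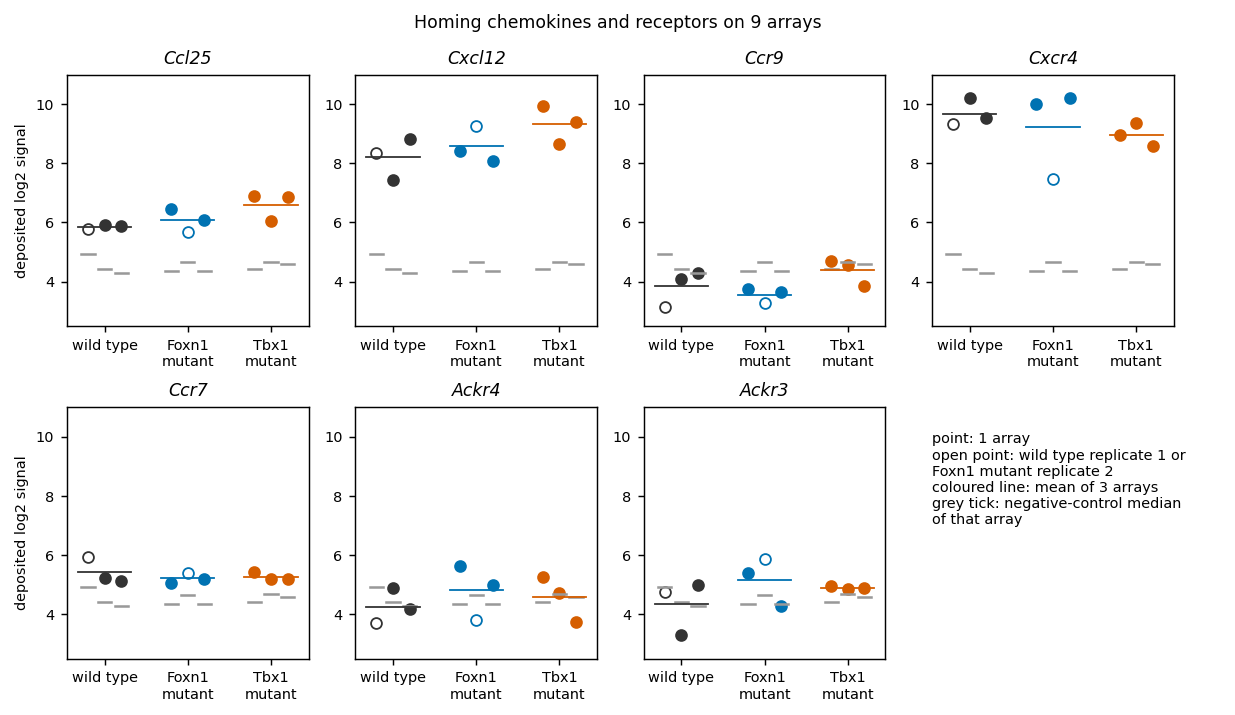
Each panel plots the deposited log2 signal of 1 gene (vertical axis) on the 3 arrays of each genotype, with the group mean as a line and the negative-control median of each array as a grey tick; open points are W1 and F2. Cxcl12 and Cxcr4 lie well above the ticks on all 9 arrays, Ccr9 lies at or under them on most, and Cxcr4 is lowest on F2 (7.48).

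Cxcr4, the CXCL12 receptor that blood progenitors carry, read 9.31, 10.19 and 9.54 on W1 to W3, 9.99, 7.48 and 10.20 on F1 to F3, and 8.95, 9.34 and 8.59 on T1 to T3. The groups overlapped. Of the 2 arrays with few leukocyte transcripts, F2 was at -2.06 relative to the mean of the other 7 arrays and W1 at -0.23. On both, Ptprc, the pan-leukocyte gene of CD45, was low (5.87 and 6.44, against 10.26 to 12.36 elsewhere). The wild type array thus kept Cxcr4 signal with little leukocyte signal. It is the array with high neuronal genes, among them Th of catecholamine synthesis at 12.44 (2.56 to 4.07 elsewhere), and the part of those cells in its Cxcr4 value was not tested. F2 had high Myl7 and Nppa of heart muscle, at 10.71 and 7.55 (3.55 to 6.53 and 2.79 to 3.37 elsewhere). The mean of the 11 muscle markers was 6.89 on F2 and highest on W2 (7.27). The part of muscle in the F2 value was not tested.

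Ccr9, the CCL25 receptor of early thymic progenitors, read 3.14, 4.09 and 4.30 on W1 to W3, 3.74, 3.29 and 3.63 on F1 to F3, and 4.70, 4.57 and 3.86 on T1 to T3. It was above the negative-control median on 2 arrays, W3 and T1, and on none of the Foxn1 mutants. All 3 Foxn1 mutant values lay under all 3 Tbx1 mutant values, but 2 of the T values were under background as well. Differences that involve the Foxn1 mutants are therefore given only with the negative-control median as the lowest level on each array. As with Ccl25, its 2 lowest values were on W1 and F2.

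Ccr7, the receptor for CCL19 and CCL21, read 5.93, 5.23 and 5.14 on W1 to W3, 5.05, 5.40 and 5.21 on F1 to F3, and 5.42, 5.21 and 5.20 on T1 to T3. This was the flattest of the 7 genes, with a range of 0.88 over all arrays. Its highest value was on W1, and without that array the remaining 8 lay between 5.05 and 5.42. All arrays were above their negative-control medians and none passed the 95th percentile.

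Ackr4, which removes CCL25, CCL19 and CCL21, read 3.70, 4.89 and 4.17 on W1 to W3, 5.64, 3.82 and 4.98 on F1 to F3, and 5.28, 4.73 and 3.73 on T1 to T3. It passed the negative-control median on 5 of 9 arrays, and each genotype held at least 1 array under it. No array passed the 95th percentile. The 3 lowest values, between 3.70 and 3.82, came from 3 different genotypes: W1, T3 and F2.

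Ackr3, which removes CXCL12, read 4.77, 3.32 and 5.01 on W1 to W3, 5.38, 5.86 and 4.27 on F1 to F3, and 4.97, 4.87 and 4.88 on T1 to T3. It passed the negative-control median on 6 of 9 arrays and the 95th percentile on none. The 3 T arrays lay between 4.87 and 4.97, while the W and F arrays spread widely. Its highest array, F2, also had the highest mesenchyme and pericyte mean (11.87, against 10.01 to 11.44), and its lowest, W2, also had the lowest Cxcl12. The part of mesenchyme in these values was not tested.

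Set against wild type, the Foxn1 mutants show whether the homing signals differ when both Foxn1 alleles are mutant. None of the 7 genes passed (limma, Benjamini-Hochberg over 22206 clusters; adjusted p = 1.00 for each). Calls were 0% of all clusters higher and 0% lower, and 898 clusters, none of them a member, had an unadjusted p under 0.05. Ccl25 was 6.07 ± 0.39 in the Foxn1 mutants and 5.85 ± 0.061 in wild type (SD, n = 3), a log2 difference of 0.21 ± 0.28 (SE) with a 95% interval of -0.42 to 0.85. With background as the lowest level Ccr9 was at -0.093 ± 0.21, where all clusters had a median of -0.085. On all these arrays but W3 Ccr9 was under that level, so the value mostly compares background levels. Ackr4, under background on W1, W3 and F2, was at 0.56 ± 0.53. The median of the 2 atypical receptors was 0.68, and 0.40 with background as the lowest level. Ccr7 was at -0.21 ± 0.24, or 0.032 without W1. Ackr3, under background on W1, W2 and F3, was at 0.81 ± 0.49 with an interval of -0.29 to 1.91, and at 0.41 with background as the lowest level. No member had groups that did not overlap, where 4.86% of all clusters were higher and 3.43% lower on all Foxn1 mutant arrays. The widest interval was that of Cxcr4, from -1.87 to 0.96.

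Single arrays moved several of these values. Cxcr4 was at -0.46 ± 0.63 with all arrays, at 0.42 without F2 and at 0.23 without both arrays that stand apart. Ackr3 was at 0.28 without W2 and at 1.26 without F3. Cxcl12 was at 0.39 ± 0.46 with all arrays and at 0.0042 without W2. Ackr4 was at 0.15 without F1 and at 1.05 without F2, and Ccl25 at 0.023 and 0.41 without the same arrays. Sample titles carry date codes, and Ccl25 was at -0.21 in code A and 0.37 in code B, and Cxcr4 at -2.05 and -0.096. In the same codes Cxcl12 was at 0.45 and 0.82 and Ackr3 at 0.86 and 1.51. Code A has 1 array of each genotype, and its Foxn1 mutant is F2. Mesenchyme and pericyte genes also differed in mean here, with 10 of 11 higher in the Foxn1 mutants and a median of 0.78 (0 called). Without W1 and F2, 7 of the 11 were higher with a median of 0.16, and their part in the Ackr3 values was not tested. Of the 16 FOXN1-dependent genes, 9 had a higher and 7 a lower mean in the Foxn1 mutants (median 0.014, 0 called). Without W1 and F2 the balance turned, to 4 higher and 12 lower with a median of -0.15 (0 called, lowest adjusted p = 0.870 by limma).

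For lobes of the Tbx1 genotype the same question was asked against the same wild type arrays. Again 0 of the 7 genes passed (adjusted p = 1.00 for each by limma), where 0% of all clusters were called higher and 0.0135% lower. Ccl25 and Cxcl12 were the 2 members with an unadjusted p under 0.05, as were 841 of all clusters. Ccl25 was 6.60 ± 0.47 against 5.85 ± 0.061 (SD, n = 3), a difference of 0.75 ± 0.28 (SE; 95% interval 0.11 to 1.39). Cxcl12 was 9.33 ± 0.66 against 8.20 ± 0.71, a difference of 1.14 ± 0.46 (SE; 95% interval 0.10 to 2.17). Ccl25 was the 1 member whose Tbx1 mutant arrays were all higher, which 5.18% of all clusters also showed, and no member was lower on all of them, which 4.27% did. For 3 arrays against 3, an exact test of a single value cannot go below p = 0.1 (two-sided).

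The Ccl25 and Cxcl12 differences kept their sign in each setting tried. Ccl25 was at 0.72 without the 2 arrays that stand apart (adjusted p = 0.591), at 0.91 with the date code as a fixed block (adjusted p = 0.506), and at 1.01 and 0.68 within codes A and C. Cxcl12 was at 1.21 without the 2 arrays (adjusted p = 0.560), at 0.94 with the block (adjusted p = 0.495), and at 1.13 and 0.69 within the codes. With any single array left out Cxcl12 ranged from 0.75, without W2, to 1.48, without T2. Mesenchyme and pericyte genes moved with this result. Their mean was 10.01, 10.37 and 10.47 on W1 to W3 and 11.44, 10.81 and 11.07 on T1 to T3, and 10 of the 11 measured markers had a higher mean in the mutants, with a median of 0.95 (0 called, lowest adjusted p = 0.213). All 11 were above background on all arrays. Endothelial markers were 7.50, 7.38 and 7.90 on W1 to W3 and 7.98, 7.71 and 7.81 on T1 to T3. The part of these cells in the Cxcl12 and Ccl25 values was not tested.

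The remaining members gave no separation of Tbx1 mutants and wild type. Ccr9 was at 0.54 ± 0.34 and 0.19 without W1, whose Ccr9 is the lowest of all arrays. With the negative-control median as the lowest level on each array it was at 0.11 ± 0.21, where all clusters had a median of 0.022. Only W3 and T1 were above that level for Ccr9. Cxcr4 was at -0.72 ± 0.63 with all arrays and at -0.90 without the 2 that stand apart (95% interval -1.57 to -0.24; adjusted p = 0.467). Leukocyte markers moved with the latter value, with 12 of 13 lower in mean and a median of -0.67 without the same arrays (0 called), against 11 of 13 higher and a median of 0.54 with all arrays. Their part in the Cxcr4 values was not tested. Ackr3, under background on W1 and W2, was at 0.54 ± 0.49 and at 0.016 without W2. Ackr4, under background on W1, W3 and T3, was at 0.32 ± 0.53. The median of these 2 genes was 0.43, and 0.14 with background as the lowest level. Ccr7, at -0.16 ± 0.24, turned to 0.087 without W1.

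**Figure D2:**
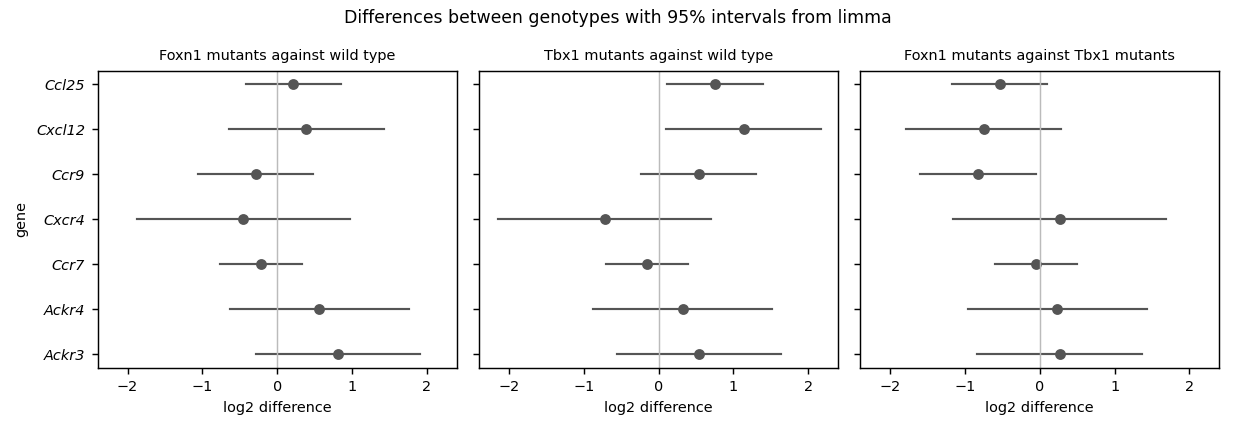
Points are log2 differences between genotype means (horizontal axis) for each of the 7 genes (vertical axis) in 3 comparisons, and bars are 95% intervals from limma over 9 arrays. The intervals of Ccl25 and Cxcl12 lie above 0 in Tbx1 mutants against wild type (0.11 to 1.39 and 0.10 to 2.17) before any adjustment, Ccr9 is plotted as measured although mostly under background, and none of the 7 genes passed after it.

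Between the mutants, 0 of the 7 genes passed (lowest adjusted p = 0.999 by limma), with 0% of clusters called higher and 0% lower. Ccl25 and Cxcl12 had lower means in the Foxn1 mutants than in the Tbx1 mutants, with log2 differences of -0.54 ± 0.28 and -0.75 ± 0.46 (SE). Ccr9 was the 1 member with an unadjusted p under 0.05, as were 661 of all clusters, and the 1 member with no overlap, lower on all Foxn1 mutant arrays. Of all clusters 3.91% were lower and 5% higher in this way. With background as the lowest level the Ccr9 difference was -0.20 ± 0.21, where all clusters had a median of -0.11. Of these arrays only T1 was above background for Ccr9, so the value mostly compares background levels. The Cxcr4 difference was 0.26 ± 0.63, and 1.14 without F2 (95% interval 0.47 to 1.80 without both arrays that stand apart; adjusted p = 0.383). Only code A holds both mutants, with 1 array of each, and there Cxcr4 was at -1.46. The moderated F test for any difference among the 3 genotypes called 0.00901% of clusters and none of the members, whose lowest unadjusted p was 0.0648, for Ccl25. These comparisons share arrays and are not separate evidence.

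As a group, the members had a median difference of 0.21 between Foxn1 mutants and wild type and 0.54 between Tbx1 mutants and wild type, where all clusters had medians of 0.018 and 0.015. The second value is that of Ccr9, a gene under background on most arrays. It was 0.19 without W1 and 0.12 with background as the lowest level, where all clusters had medians of -0.012 and 0.022. Both ligands had a higher mean in either mutant than in wild type when all arrays were used, as did both atypical receptors. The atypical receptors lay under background on some arrays, and the Ackr4 differences from wild type changed sign in some settings. None of these differences passed the test. The median size of difference, without sign, was 0.39 and 0.54 for the members and 0.20 and 0.19 for all clusters. With background as the lowest level these were 0.39 and 0.16, and 0.085 and 0.068. Without W1 and F2 they were 0.38 and 0.72, and 0.22 and 0.22. With all arrays the SE of the member differences ran from 0.24 (Ccr7) to 0.63 (Cxcr4), where the median SE of all clusters was 0.28. The sizes were not scaled to these errors.

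Over the 7 arrays with thymic signal, the members were set beside the means of 4 cell type lists, which gave 28 relations. None passed after adjustment (lowest adjusted exact permutation p = 0.0507 for Pearson and 0.0945 for Spearman; two-sided). Cxcl12 went with stroma, with r = 0.898 for the endothelium list, and against epithelium, with r = -0.917 (exact permutation p = 0.00794 and 0.00754). Without the 2 farthest arrays these were 0.611 and -0.592. Cxcl12 and the mesenchyme and pericyte list had r = 0.894 (exact permutation p = 0.00575) and rho = 0.857 (exact permutation p = 0.0238). Without the 2 arrays farthest from the middle of the list r was 0.579 (exact permutation p = 0.308) over the 5 left, which span a narrower range, so the relation was not shown without those arrays. Cxcr4 and the leukocyte list had r = 0.861 (exact permutation p = 0.0101) and rho = 0.857 (exact permutation p = 0.0238), and r = 0.457 without the 2 farthest (exact permutation p = 0.392). With the mesenchyme and pericyte list Cxcr4 had r = -0.849 (exact permutation p = 0.0151) and rho = -0.929 (exact permutation p = 0.00675). Without the 2 farthest that r was -0.725 (exact permutation p = 0.192). The largest of the 28 was that of Ccl25 and the leukocyte list, r = -0.943 (exact permutation p = 0.00893), with rho = -0.714 (exact permutation p = 0.0881) and r = -0.646 without the 2 farthest. Ccl25 and the mesenchyme and pericyte list had r = 0.868 (exact permutation p = 0.0143), rho = 0.679 (exact permutation p = 0.110) and r = 0.422 without the 2 farthest. Ccl25 and the thymic epithelium list had r = -0.807 (exact permutation p = 0.0111) and rho = -0.714 (exact permutation p = 0.0881), and r = -0.733 without the 2 farthest (exact permutation p = 0.217). None of these relations had an exact permutation p under 0.05 without the 2 farthest arrays. Genotype and date code vary over the same arrays, and within a genotype there are too few arrays for a correlation.

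**Figure D3:**
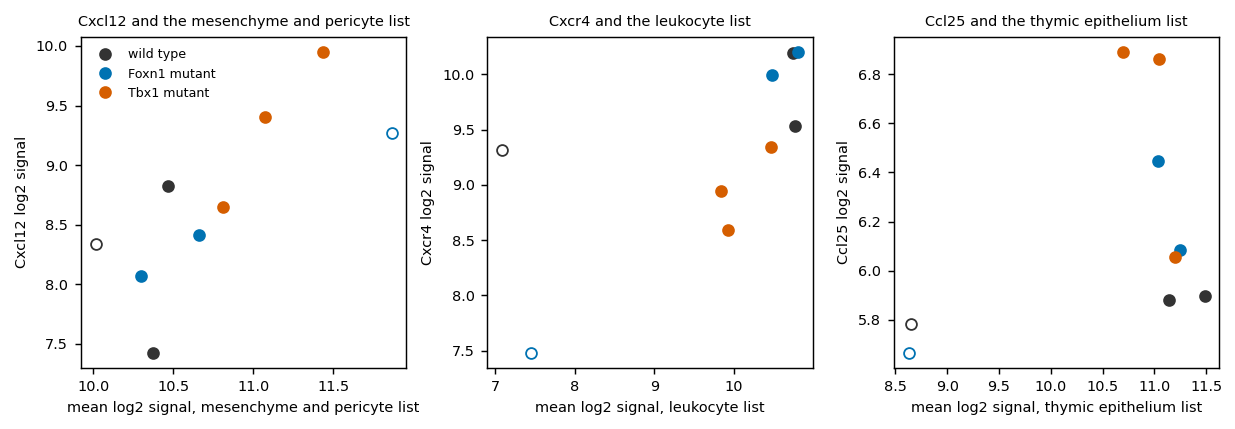
Each point is an array, with the mean log2 signal of a marker list on the horizontal axis and the log2 signal of Cxcl12, Cxcr4 or Ccl25 on the vertical axis, coloured by genotype; open points are W1 and F2. W1 keeps Cxcr4 at 9.31 with a leukocyte mean of 7.08, and Ccl25 is highest on T1 (6.89), which has an epithelial mean of 10.69.

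Genes of most similar profile over the 9 arrays were found for the 3 members whose range exceeded 2 log2 units. The measure was the root mean square difference after each gene's own mean was subtracted. For Cxcl12 they were Pear1, an endothelial and platelet receptor (0.186), Gdf6, a BMP family ligand (0.257), and Aebp1, a matrix-associated protein of mesenchyme (0.305). Pear1 ran from 7.27 on W2 to 9.70 on T1. For Cxcr4 they were Tagln2, an actin-binding protein (0.249), the tetraspanin Tspan13 (0.284) and 1500009L16Rik (0.342). Like Cxcr4, Tagln2 was near its other values on W1 (10.58) and lowest on F2 (8.31). For Ackr3 they were Fcgrt, the neonatal Fc receptor (0.289), Pappa, a protease of IGF-binding proteins (0.298), and Sulf1, which trims heparan sulfate (0.299). These genes were chosen for their likeness, from 10103 candidates for Cxcl12 and Cxcr4 and 10104 for Ackr3.

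The rest of the chemokine system was read from lists of gene families. Of 22 other CC ligands, 0 were called in either comparison with wild type, 3 had a higher and 19 a lower mean in the Foxn1 mutants (median -0.17), and 7 a higher and 15 a lower mean in the Tbx1 mutants (median -0.10). Without W1 and F2 these were 4 and 18 (median -0.26), and 10 and 12 (median -0.077). With background as the lowest level they were 1 and 21 (median -0.085), and 12 and 10 (median 0.019). All clusters then had medians of -0.085 and 0.022, so no lowering of these ligands as a set was shown. The 4 with the lowest p across genotypes were Ccl21b, Ccl21c, Ccl21a and Ccl11. Ccl21a, whose product is a ligand of CCR7 and ACKR4, read 14.57, 12.15 and 13.20 on W1 to W3, 11.38, 11.05 and 12.84 on F1 to F3, and 9.58, 9.49 and 9.56 on T1 to T3. The T arrays were all lower than the W and F arrays, with a mean difference from wild type of -3.76 (adjusted p = 0.151 by limma). The 4 parathyroid markers, of a gland that develops beside the thymus, averaged 9.05 to 11.23 on the W arrays, 8.30 to 9.69 on the F arrays and 4.95 to 5.28 on the T arrays, and their part in the Ccl21a values was not tested. Ccl21b and Ccl21c had identical values on all arrays, and these near copies cannot be told apart. Ccl19, the other CCR7 ligand, was named for that reason after its values were seen, and it was among the 10 CC ligands under background on all arrays. Ccl11, an eosinophil attractant above background on 4 arrays, had log2 differences from wild type of 0.66 ± 0.24 (F) and 0.59 (T).

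Of 16 other CXC, C and CX3C ligands, 0 were called, with medians of -0.057 in the Foxn1 mutants and -0.16 in the Tbx1 mutants, or -0.17 and 0.021 without W1 and F2. Under background on all 9 arrays were 10 of the 16. The lowest p values were those of Xcl1, Cxcl15, Ppbp and Cxcl3. Xcl1 and Cxcl3 were above background on 0 arrays, Cxcl15 on 4 and Ppbp on 9. Ppbp, a platelet chemokine, was highest on W1 (8.88) and read 5.45 to 7.94 elsewhere. Of 18 other chemokine receptors, 0 were called and 9 lay under background on all 9 arrays. The lowest p values were those of Cxcr1, Ccr3, Cxcr3 and the scavenger Ackr2, with Ccr3, above background on 2 arrays, at 0.58 and 0.61 in the mutants. None of the 18 was above background on all arrays.

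Adhesion molecules of homing (16 measured) and the signalling genes downstream of chemokine receptors (20 measured) gave 0 calls in either comparison. The adhesion medians were -0.12 in the Foxn1 mutants and 0.21 in the Tbx1 mutants, and 0.0050 and -0.097 without W1 and F2. The signalling medians were 0.0096 and -0.031, and -0.076 and -0.43 without them. The adhesion genes of lowest p were Itgb2, Itga6, S1pr1 and Itgb7, and Itgb2, the beta chain of leukocyte integrins, was above background on 2 arrays and at -1.15 ± 0.45 in the Foxn1 mutants. The signalling genes of lowest p were Rgs2, Rap1b, Gng2 and Gnai3, and Rgs2, which damps G protein signals, had differences of 0.41 (F) and -0.87 (T). Other adhesion genes were named after their values were seen, for their place on the 2 arrays that stand apart. Selplg, the P-selectin ligand of leukocytes, read 7.25 on W1 and 6.54 on F2, and 10.93 to 12.92 elsewhere. Itga4, the alpha 4 integrin, read 9.19 and 8.10 against 11.80 to 13.31. Both were thus low on both arrays, whereas Cxcr4 was low on the second alone. Other adhesion genes of the list were not low there. Itgb7 read 9.21 on W1 and 9.63 on F2 against 8.51 to 9.60, and Itgb1 13.51 and 13.59 against 12.36 to 13.53.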

How the data were processed

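The authors deposited log2 signals of 28846 features on 9 arrays (3 per genotype), a unit read from the values. The sources used here do not give their summarisation, normalization or build. Control features were left out (5222 negative, 1324 positive, 94 others), leaving 22206 clusters, of which 19572 had 1 gene symbol in the platform annotation. Symbols were checked by Entrez ID against RefSeq genes of GRCm38.p6. A linear model with 1 term per genotype was fitted across the 22206 clusters by limma 3.58.1 (R 4.3.3, package data.table, version 1.17.8), with empirical Bayes moderation, two-sided tests and Benjamini-Hochberg adjustment over all clusters (threshold 0.05). The fit was tested on simulated data. A gene was represented by its cluster of highest mean. Exact permutation tests of correlations were two-sided.

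The 7 members, the gene lists and the rule for named genes (the members, the 4 genes of lowest F test p per chemokine, adhesion or signalling list, and the 3 genes of most like profile) were chosen with earlier results of these data known. Ccl19, Selplg, Itga4, Itgb1, Prss16, Psmb11, Krt5, Epcam, Pax9, Eya1, Ptprc, Th, Myl7 and Nppa were named after their values were seen. Genotypes came from the labels. The titles carry 3 date codes: W3, F2 and T1 share code A, W2, F1 and F3 code B, and W1, T2 and T3 code C. What the codes stand for is not stated. Alternatives were 2 other scalings, 2 filters on dim clusters, array weights, other moderation, a block for the date code, fewer arrays, a threshold of 0.1 and a background floor. For gene lists, targeted genes and the members' median, leaving out W1 and F2 and the floor were added after seeing the data. The number of arrays limits the precision. Plots used Python 3.11.15 and matplotlib 3.10.9. Replicate numbers follow accession order and pair no samples.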

Additional observations from a re-analysis of the deposited data

How the results depend on the processing

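Under each alternative run, 0 members were called in the 3 comparisons and the F test (83 counts), and the lowest adjusted p in a comparison was 0.383 (limma). Of the 21 member differences, 12 kept their sign in all settings. The others changed sign while uncalled. With the date code as a fixed block Ackr4 turned to -0.017 in Foxn1 mutants against wild type, and between the mutants Cxcr4 turned to -0.78, Ccr7 to 0.24 and Ackr4 to -0.92. Without the 2 arrays that stand apart, Cxcr4 turned to 0.23 in Foxn1 mutants against wild type, Ccr7 to 0.087 in Tbx1 mutants against wild type and Ackr3 to -0.078 between the mutants. The cause of these turns was not tested. With 1 array left out in turn, Foxn1 mutants against wild type ranged from -0.94 to 0.42 for Cxcr4 and -0.36 to 0.032 for Ccr7. Tbx1 mutants against wild type ranged from -0.31 to 0.087 for Ccr7 and -0.023 to 0.75 for Ackr4. Between the mutants the ranges were -0.23 to 1.14 for Cxcr4, -0.14 to 0.029 for Ccr7, -0.19 to 0.73 for Ackr4 and -0.078 to 0.72 for Ackr3. Each member has a single cluster, so averaging clusters per gene changed nothing. Ccr9, Ackr4 and Ackr3 lie near background, where log2 differences are compressed, and have no value when clusters under the median level are left out.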
